A study of Mus musculus with 27 samples.

Results

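The 7 genes described here encode the Egr zinc finger factors (Egr1, Egr2, Egr3 and Egr4) and the Nr4a orphan nuclear receptors (Nr4a1, Nr4a2 and Nr4a3). They were taken by symbol from the deposited count table, as 7 of its 22340 rows, and all 7 passed the filter on low counts that left 18087 genes for testing. The table covers 27 cortex libraries of wild-type C57BL6 mice aged 7 to 8 weeks. Ipsilateral cortex came from the hemisphere in which the middle cerebral artery had been blocked for 35 min by an intraluminal filament, taken 3, 6, 12 or 24 h after blood flow was restored, with 3 libraries per time. Contralateral cortex came from the opposite hemisphere of operated mice at the same 4 times, with 3 libraries per time. Sham cortex came from 3 mice that were anesthetized and had their arteries exposed with no filament. All animals therefore shared brief isoflurane anesthesia and neck surgery. The labels used here do not give the hemisphere of the sham tissue, the time between sham surgery and dissection, or whether both hemispheres of 1 mouse were sequenced. The same number in different groups marks a shared day of surgery, by the study's design text.

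Both families are immediate early genes: their transcription begins within minutes of synaptic activity, growth factors or calcium entry, from factors that already sit in the cell, without new protein synthesis. Serum response factor with its Elk partners acts on CArG boxes and Ets sites of Egr promoters, and CREB acts on cyclic AMP response elements (CREs) in Nr4a promoters and in several Egr promoters. Egr proteins bind GC-rich sites through 3 zinc fingers, and Egr1, Egr2 and Egr3 are held back by the corepressors Nab1 and Nab2. Nr4a receptors have no classical ligand, bind the NBRE site as monomers, and in the case of Nr4a1 and Nr4a2 also pair with retinoid X receptors. In neurons Egr1 (also Zif268) is a widely used marker of recent activity, and Nr4a2 (also Nurr1) is required for midbrain dopamine neurons.

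Proximal promoters were available for 5 of the 7 genes and are printed below. Each is a RefSeq window on GRCm38.p6 of 250 bases before and 50 bases after a start site, written 5′ to 3′ on the gene's strand. The capitals mark every match, on either strand, to the CRE core TGACG, to a CArG box or to an Egr site (GCGTGGGCG or GCGGGGGCG). The Egr2 window, chr10:67537619-67537918 on the plus strand, is 1 of 5 listed for that gene. The Egr4 window is chr6:85513540-85513839 on the minus strand, the Nr4a1 window chr15:101266596-101266895 on the plus strand, the Nr4a2 window chr2:57123954-57124253 on the minus strand, and the Nr4a3 window chr4:48045055-48045354 on the plus strand.
Egr2: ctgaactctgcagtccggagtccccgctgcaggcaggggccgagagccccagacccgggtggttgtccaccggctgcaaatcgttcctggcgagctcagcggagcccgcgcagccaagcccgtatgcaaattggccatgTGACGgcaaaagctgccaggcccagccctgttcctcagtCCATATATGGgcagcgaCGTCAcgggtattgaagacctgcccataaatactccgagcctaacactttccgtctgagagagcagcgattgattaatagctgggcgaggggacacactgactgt
Egr4: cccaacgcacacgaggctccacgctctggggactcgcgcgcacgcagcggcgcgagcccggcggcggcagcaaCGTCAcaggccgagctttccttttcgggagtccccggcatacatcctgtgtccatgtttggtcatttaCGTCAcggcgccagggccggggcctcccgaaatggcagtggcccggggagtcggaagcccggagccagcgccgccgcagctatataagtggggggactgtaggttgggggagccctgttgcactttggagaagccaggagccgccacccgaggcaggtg
Nr4a1: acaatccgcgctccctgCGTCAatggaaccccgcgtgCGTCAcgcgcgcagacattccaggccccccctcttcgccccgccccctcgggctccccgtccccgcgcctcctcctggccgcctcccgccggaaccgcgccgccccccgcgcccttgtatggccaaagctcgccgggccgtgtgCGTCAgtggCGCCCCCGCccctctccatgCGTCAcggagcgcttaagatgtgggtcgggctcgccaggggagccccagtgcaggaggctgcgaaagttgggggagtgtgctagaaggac
Nr4a2: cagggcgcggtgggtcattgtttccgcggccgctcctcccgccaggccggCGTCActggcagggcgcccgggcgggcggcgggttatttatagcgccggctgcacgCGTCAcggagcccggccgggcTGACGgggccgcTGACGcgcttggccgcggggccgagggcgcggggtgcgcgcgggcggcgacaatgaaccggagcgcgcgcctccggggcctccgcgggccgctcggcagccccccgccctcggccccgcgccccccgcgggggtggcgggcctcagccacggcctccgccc
Nr4a3: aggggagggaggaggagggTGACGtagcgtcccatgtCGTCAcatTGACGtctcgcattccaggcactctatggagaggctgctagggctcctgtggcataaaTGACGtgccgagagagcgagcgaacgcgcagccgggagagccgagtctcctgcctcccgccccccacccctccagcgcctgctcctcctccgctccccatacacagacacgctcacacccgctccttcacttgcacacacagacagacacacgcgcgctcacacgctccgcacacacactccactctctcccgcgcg

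Every printed window held the CRE core, as did 3 of the 5 windows listed for Egr2, with 2 matches in the one printed for Egr2, 2 in Egr4, and 4 each in Nr4a1, Nr4a2 and Nr4a3. Among all 32851 RefSeq windows of this length, 20.8% held it. The printed windows were 60.0 to 81.7% GC, and the shares over all windows were not matched for GC content. The full CRE (TGACGTCA) was in none of the 5, against 1.79% of all windows. A CArG box lay at -72 to -63 from the Egr2 start, CCATATATGG, a motif held by 4 of the 5 windows listed for Egr2 and by 1.63% of all windows. An Egr site lay at -60 to -52 in the Nr4a1 window alone, on the minus strand as CGCCCCCGC, against 3.47% of all windows. The NBRE (AAAGGTCA) was in none of the 5, and in 1.51% of all windows. These matches describe letters in these windows and say nothing of which factors were bound.

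By GENCODE M21 on mm10, no other annotated gene overlapped any of the 7 on either strand. Egr2 spans chr10:67535475-67542188, Egr3 chr14:70077203-70082614 and Nr4a1 chr15:101254269-101274795, all on the plus strand, as does Nr4a3 at chr4:48045153-48086447. Egr4 spans chr6:85511121-85513589 and Nr4a2 chr2:57106830-57124003 on the minus strand, and Egr1 lies on chromosome 18.

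Library totals were 26505996 to 48830897 counts. Contralateral replicate 1 at 3 h stood apart: its levels fell with transcript GC content by 1.02 log2 units between the lowest and the highest of 10 GC bins, against at most 0.326 in size in the other libraries. Ipsilateral replicate 1 at 24 h had the highest share of mitochondrial ribosomal RNA, 40.4%, in a range that began at 24.4%. GC content was 68.2% for Egr4 transcripts, the 99.9th percentile of 13198 genes, and 47.9 to 57.3% for the other members. All 10 cortical excitatory neuron markers were detected in every library, Slc17a7 at 497 CPM or more (CPM, the usual depth-normalised read count, here with library sizes scaled by TMM). Striatal neuron markers, summed over 11 genes, ranged from 116 to 437 CPM and their groups overlapped. Of the choroid plexus markers, summed levels reached 735 CPM in 1 ipsilateral library at 3 h, while the other ipsilateral libraries at that time had at most 15.3 CPM. At 6 h they reached 350 CPM in 1 ipsilateral and 421 CPM in 1 contralateral library, and at 12 and 24 h 85.6 and 192 CPM in 1 contralateral library each. Blood leukocyte markers summed to between 1.13 and 15.4 CPM.

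**Figure D1:**
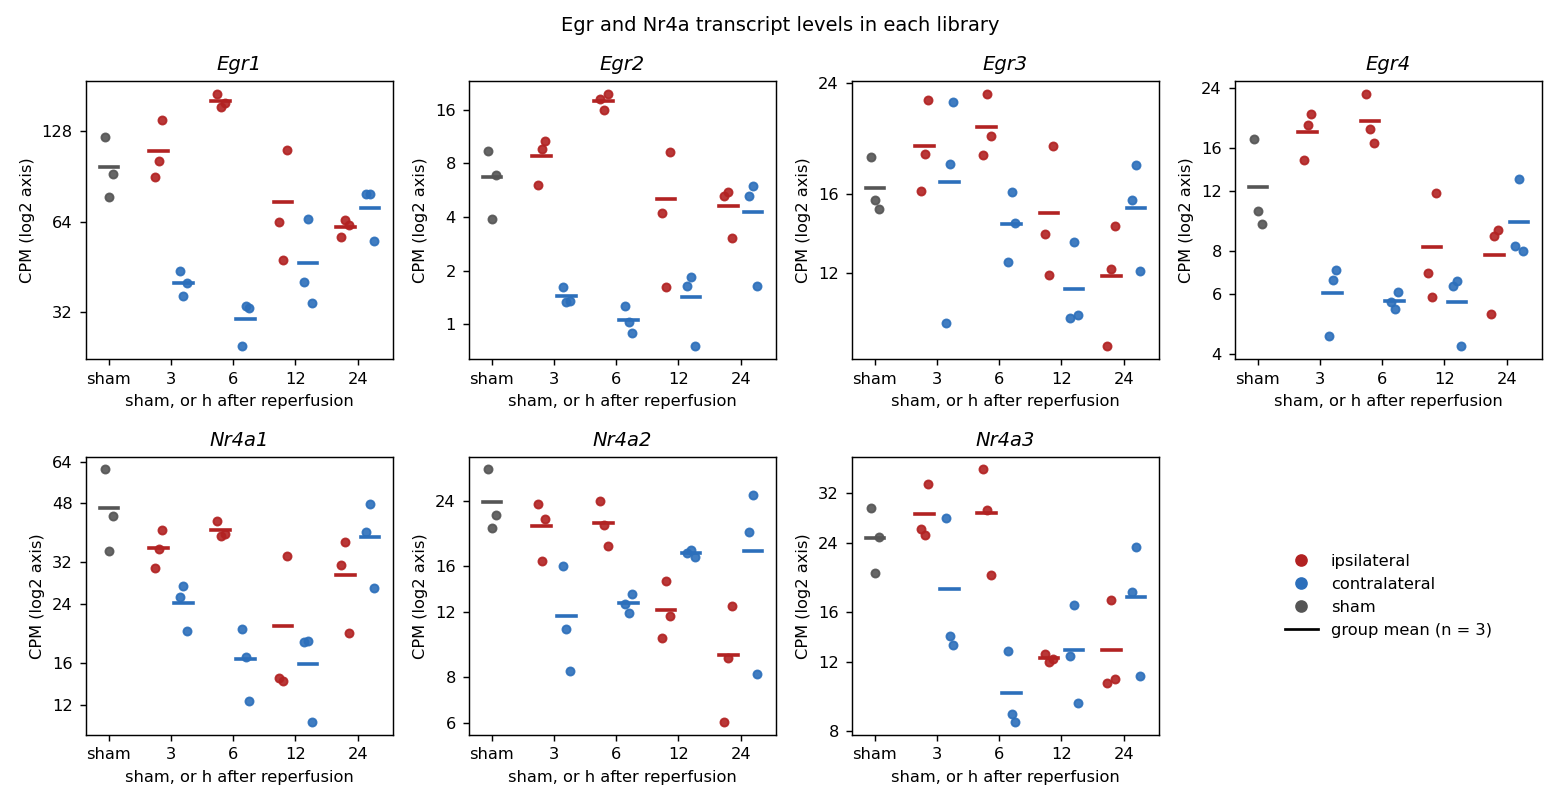
CPM of each member in each of the 27 libraries on a log2 axis, by hours after reperfusion, with sham at the left and group means as bars (n = 3). Ipsilateral points lie above contralateral points for all 7 genes at 6 h, and the contralateral points of Egr1 and Egr2 lie below sham at 3, 6 and 12 h.

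Per kilobase of exon, which allows genes to be compared, Egr1 was the most abundant member in ipsilateral cortex at 6 h, at 35.8 ± 1.92 CPM per kb (SD, n = 3 here and below). Nr4a1 followed at 14.9 ± 0.801, Egr4 at 8.97 ± 1.59 and Egr2 at 5.64 ± 0.613 CPM per kb. In contralateral cortex at 6 h the level of Egr1 was 6.80 ± 1.12 CPM per kb, that of Nr4a1 6.11 ± 1.46, and that of Egr2 was the lowest at 0.333 ± 0.0604. In sham cortex Egr1 stood at 21.6 ± 5.10, Nr4a1 at 17.3 ± 4.92 and Egr2, again lowest, at 2.12 ± 0.866 CPM per kb.

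Egr1, Egr2 and Egr4 were higher in ipsilateral than in contralateral cortex at 3 and 6 h after reperfusion, and at 6 h Nr4a1 and Nr4a3 were higher as well. At 3 h 3 of 7 members passed an adjusted p of 0.05 (edgeR quasi-likelihood test, Benjamini-Hochberg over 18087 genes), where 0.232% of all genes were called higher. At 6 h 5 of 7 passed, where 5.85% of all genes were called higher. At 12 h Egr2 alone passed (7.94% of all genes higher), and at 24 h the only member called, Nr4a2, was lower in ipsilateral cortex (9.36% of all genes lower). In bulk tissue, fewer cells of a type and less RNA per cell cannot be told apart. The median log2 fold change over the 7 members was 0.81, 1.51, 0.40 and -0.35 at 3, 6, 12 and 24 h, and over all tested genes it was within 0.03 of 0 at each time.

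Egr1 had 89.9, 102 and 139 CPM in ipsilateral libraries 1, 2 and 3 at 3 h, against 44.0, 36.3 and 40.1 CPM in contralateral ones. At 6 h it had 170.1, 153 and 158 CPM in ipsilateral and 24.7, 33.7 and 33.1 CPM in contralateral libraries. The groups did not overlap at either time, and the 6 h ipsilateral libraries were the highest of all 27. The level of Egr1 was 2.74-fold higher at 3 h (log2 fold change 1.46 ± 0.26 SE, adjusted p = 0.0142) and 5.27-fold higher at 6 h (2.40 ± 0.27, adjusted p = 6.72e-06). At 12 h ipsilateral libraries had 63.9, 47.7 and 111 CPM and contralateral ones 40.5, 65.1 and 34.3 CPM. At 24 h they had 57.1, 65.1 and 62.2 CPM, against 78.9, 79.1 and 55.3 CPM. The groups overlapped at both later times, with log2 fold changes of 0.67 ± 0.26 (adjusted p = 0.0963) and -0.21 ± 0.26 (adjusted p = 0.615). The 12 h difference was called without contralateral replicate 2 (0.0205) or ipsilateral replicate 2 (0.0185). Ranked by mean over the 9 groups, ipsilateral cortex at 6 h was the highest and did not overlap the next, contralateral cortex at 6 h was the lowest and did not overlap the one above, and all other neighbours in the order overlapped.

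Egr2, also Krox20, known for its role in hindbrain patterning and myelination, was the least abundant member per kilobase in every contralateral group and in sham and had the largest fold changes of the 7 at 3, 6 and 12 h. Ipsilateral libraries at 3 h had 6.02, 9.67 and 10.7 CPM, against 1.61, 1.34 and 1.36 CPM in contralateral ones. At 6 h ipsilateral libraries had 18.4, 15.9 and 19.7 CPM, from 608 to 935 counts, against 1.27, 1.03 and 0.891 CPM in contralateral ones, from 35 to 56 counts. Groups were apart at both times. Egr2 was 6.12-fold higher at 3 h (log2 2.61 ± 0.54, adjusted p = 0.0456) and 16.8-fold higher at 6 h (95% interval 7.50 to 37.9, adjusted p = 0.000115). At 12 h, with 4.21, 1.62 and 9.34 CPM in ipsilateral and 1.64, 1.85 and 0.751 CPM in contralateral libraries, the groups overlapped while the mean was 3.54-fold higher (adjusted p = 0.0290). At 24 h ipsilateral libraries had 5.27, 5.55 and 3.04 CPM and contralateral ones 5.26, 5.95 and 1.65 CPM, which overlap (log2 0.10 ± 0.49, adjusted p = 0.915).

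Egr4, a member found mainly in the nervous system, had 14.8, 18.7 and 20.1 CPM in ipsilateral libraries at 3 h, against 4.52, 6.59 and 7.02 CPM in contralateral ones. At 6 h it had 23.1, 18.2 and 16.5 CPM in ipsilateral and 5.67, 5.41 and 6.06 CPM in contralateral libraries. Groups did not overlap at 3 or 6 h, where Egr4 was 2.96-fold (adjusted p = 0.00708) and 3.37-fold higher (adjusted p = 0.000158). By 12 h means were 8.19 ± 3.16 CPM in ipsilateral and 5.69 ± 1.29 CPM in contralateral cortex, with overlap (adjusted p = 0.222), and at 24 h they were 7.77 ± 2.19 and 9.74 ± 2.78 CPM (adjusted p = 0.428).

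Egr3, which in neurons is induced by activity downstream of receptor and synaptic signals, had the smallest fold changes of the Egr genes at 3, 6 and 12 h. It averaged 19.1 ± 3.19 CPM in ipsilateral and 16.8 ± 6.27 CPM in contralateral cortex at 3 h, and 20.4 ± 2.38 and 14.4 ± 1.80 CPM at 6 h. The 6 h groups were apart, but the log2 fold change of 0.51 ± 0.22 (95% interval 0.06 to 0.96) did not pass (adjusted p = 0.159). In 13 of 15 alternatives it was likewise not called. The lowest adjusted p among the alternatives was 0.0112, when only the 6 h libraries entered the fit. At 12 h the log2 fold change was 0.40 ± 0.22 and at 24 h -0.35 ± 0.22, neither of them called (adjusted p = 0.257 and 0.278). Neighbouring groups overlapped at every step of the order of its 9 group means.

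Among the nuclear receptors, Nr4a1 (also Nur77) had 30.8, 35.1 and 40.0 CPM in ipsilateral libraries at 3 h, against 25.2, 27.2 and 20.0 CPM in contralateral ones. At 6 h ipsilateral libraries had 42.4, 38.5 and 38.9 CPM, against 20.1, 16.7 and 12.3 CPM in contralateral ones. Both pairs of groups were apart, and the 6 h difference was called (2.44-fold higher, log2 1.29 ± 0.32, adjusted p = 0.0175) while that at 3 h was not (log2 0.55 ± 0.32, adjusted p = 0.568). At 12 h Nr4a1 had 14.4, 14.1 and 33.3 CPM in ipsilateral and 18.5, 18.6 and 10.6 CPM in contralateral libraries. At 24 h it had 31.3, 36.8 and 19.6 CPM, against 39.5, 47.9 and 26.8 CPM. Groups overlapped at both times (adjusted p = 0.518 and 0.434).

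Nr4a3 (also Nor1) had 36.8, 29.1 and 19.9 CPM in ipsilateral libraries at 6 h and 12.8, 8.83 and 8.43 CPM in contralateral ones. The groups were apart, with a 2.85-fold higher ipsilateral level (log2 1.51 ± 0.31, adjusted p = 0.00414). At 3 h it had 25.9, 25.1 and 33.8 CPM, against 27.7, 13.9 and 13.2 CPM: contralateral replicate 1, the library with the GC trend, lay within the ipsilateral range, and the difference was not called (log2 0.63 ± 0.31, adjusted p = 0.470). Nr4a3 transcripts had 48.4% GC, and the part of the GC trend in this value was not tested. At 12 h the ipsilateral libraries lay close together at 12.5, 12.0 and 12.2 CPM, inside the contralateral range of 9.43 to 16.7 CPM (adjusted p = 0.920). At 24 h means were 12.9 ± 3.73 CPM in ipsilateral and 17.5 ± 6.19 CPM in contralateral cortex (adjusted p = 0.343).

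For Nr4a2 the direction of the difference changed between times, and whether its course differed from that of the other members was not tested. At 6 h it had 24.0, 20.7 and 18.1 CPM in ipsilateral and 12.6, 11.9 and 13.4 CPM in contralateral libraries, groups that were apart but not called (log2 0.73 ± 0.30, adjusted p = 0.150). With only the 6 h libraries in the fit the adjusted p was 0.000756. At 12 h the order was turned: all 3 ipsilateral libraries, at 10.2, 14.5 and 11.6 CPM, lay below the contralateral ones at 17.3, 17.7 and 16.9 CPM, with log2 -0.51 ± 0.30 (adjusted p = 0.299, and 0.0194 with only the 12 h libraries). Only 1 of 7 members was apart in this direction, no more than the share of all genes, 15.7%. Cortical excitatory neuron markers summed to 1048 to 1280 CPM in ipsilateral and 1589 to 1609 CPM in contralateral libraries at 12 h, also apart. Slc17a7 weighed most in such sums, at 497 to 1057 CPM over all libraries, against at most 152 CPM for any other marker. The part of these markers in the Nr4a2 difference was not tested. At 24 h ipsilateral libraries had 6.02, 8.99 and 12.4 CPM, against 19.8, 24.8 and 8.11 CPM in contralateral ones. The groups overlapped through contralateral replicate 3, and the ipsilateral level was 1.91-fold lower (log2 -0.94 ± 0.30, adjusted p = 0.0349).

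**Figure D2:**
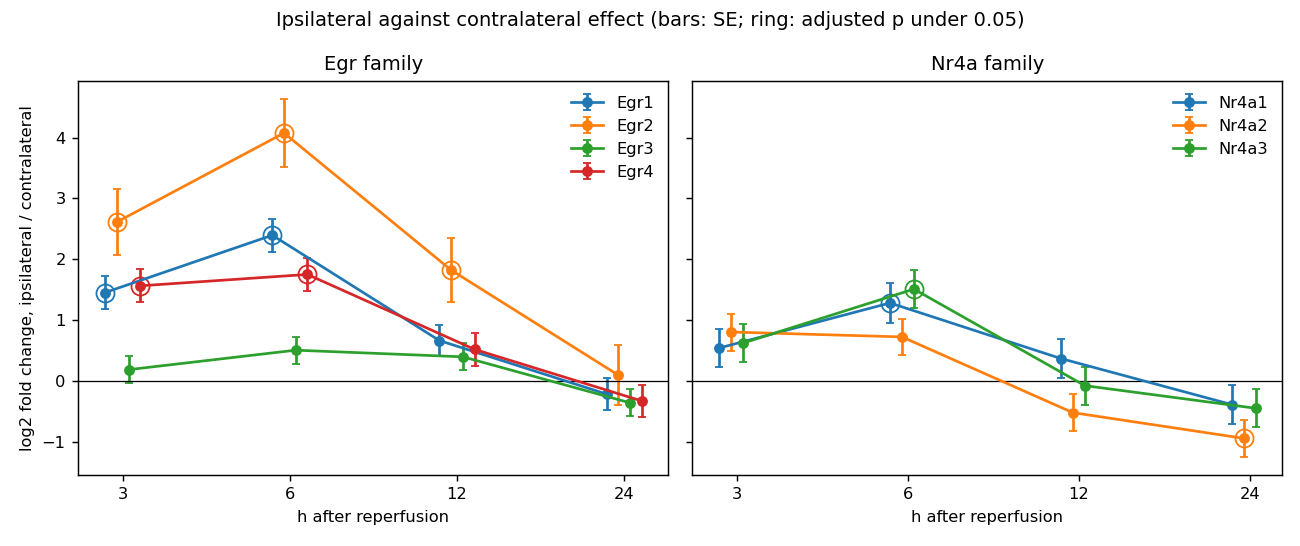
Log2 fold change of ipsilateral over contralateral cortex (vertical axis) at 3, 6, 12 and 24 h after reperfusion, by family, from 3 libraries per group. Bars are SE and rings mark an adjusted p under 0.05. Egr2 peaks at 4.07 at 6 h, and Nr4a2 is the only member called below 0, at 24 h.

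At 6 h all 7 members had libraries that did not overlap between hemispheres, all higher in ipsilateral cortex, where 16.9% of all genes did. At 3 h 5 of 7 did so (6.13% of all genes). Compared within each day of surgery, the ipsilateral library was higher on 3 of 3 days for every member at 6 h, and at 3 h for every member but Nr4a3, on 2 of 3. At 24 h Nr4a1 and Nr4a3 were higher on 0 of 3 days. The calls differed in how far they rested on single libraries. The 6 h calls of Egr1, Egr2, Egr4 and Nr4a3 held in all 15 alternatives run for each, with adjusted p up to 0.00138, 0.00199, 0.00261 and 0.0321. That of Nr4a1 was lost without contralateral replicate 2 (adjusted p = 0.0607) or 3 (0.0946), or without ipsilateral replicate 1 (0.0579) or 2 (0.0580).

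All 3 calls at 3 h were lost without contralateral replicate 1, the library with the GC trend, although the log2 fold changes moved little, to 1.53 for Egr1, 2.71 for Egr2 and 1.40 for Egr4 (adjusted p = 0.0938, 0.162 and 0.0966). Egr1 was lost also without contralateral replicate 3 (0.0720) or ipsilateral replicate 3 (0.0785). Egr2 was lost without contralateral replicate 2 (0.0740) or 3 (0.121), or ipsilateral replicate 2 (0.171) or 3 (0.154). Blocking on the day of surgery gave 0.0634 for Egr2, and blocking on the day within each time gave 0.0934 for Egr1 and 0.0796 for Egr2, which left 1 of 7 called. The choroid plexus markers high in 1 ipsilateral library at 3 h were not called between hemispheres at 3 or 6 h (0 of 9 genes at each). Of all genes, 0.232 and 5.85% were called higher and 0.0166 and 2.14% lower. A test of group means is poorly placed to call a signal in 1 library of a group, so these counts show little. The part of these markers in the differences was not tested.

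The 12 h call of Egr2 was lost without any of contralateral replicates 1, 2 and 3 (adjusted p = 0.0711, 0.0524 and 0.119) and without ipsilateral replicate 1 (0.0620) or 3 (0.218, with log2 1.04). It was lost also with the day blocked within each time (0.106). The 24 h call of Nr4a2 was lost without contralateral replicate 1 (0.106) or 2 (0.190, with log2 -0.61), without ipsilateral replicate 1 (0.139) or 2 (0.0773), with the day of surgery blocked (0.0539) and with the day blocked within each time (0.125). At 24 h 6 of 10 cortical excitatory neuron markers were also lower in ipsilateral than in contralateral cortex (9.36% of all genes were called lower). The summed level of these markers was 890 to 1080 CPM in ipsilateral, against 1552 to 1588 CPM in contralateral libraries. Their part in the Nr4a2 difference was not tested.

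The difference between hemispheres changed over time for Egr1, Egr2 and Egr4. An F-test that the ipsilateral over contralateral effect was equal at the 4 times gave adjusted p = 0.00482 for Egr1, 0.0341 for Egr2 and 0.00905 for Egr4, so 3 of 7 members passed where 1.34% of all genes did. Nr4a2 and Nr4a3 did not pass, at adjusted p = 0.0513 and 0.0614, and Nr4a3 did so with the day of surgery blocked (0.0393, or 0.0156 within each time). Between 6 and 24 h the effect changed by -2.61 ± 0.37 log2 units for Egr1, -3.97 ± 0.73 for Egr2, -2.08 ± 0.38 for Egr4 and -1.96 ± 0.44 for Nr4a3 (adjusted p = 0.00173, 0.0166, 0.0121 and 0.0464). Thus 4 of 7 passed, where 0.343% of all genes were called in that direction, and the change of Egr2 was the lowest of all 18087. From 3 to 6 h no member's effect was called to change with edgeR (1 of 7 at an unadjusted p under 0.05, 0 with DESeq2), and in this fit no other gene was either (0% higher and 0% lower). Over all genes this depended on the setting: 13 were called with the day blocked within each time, and 55 by DESeq2.

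The tests over time held for Egr1 and Egr4 in every alternative run, with adjusted p up to 0.0389 and 0.0255 over the 4 times and up to 0.0323 and 0.0460 between 6 and 24 h. For Egr2 the test over the 4 times was lost (adjusted p 0.0512 to 0.0852) without any of 13 libraries. Of the ipsilateral libraries these were replicates 2 and 3 at 3 h, 1 and 2 at 6 h, 1 at 12 h and 1 and 2 at 24 h, and of the contralateral ones replicate 3 at 3 h, all at 6 h and 1 and 2 at 24 h. Blocking the day within each time (0.0617) or leaving out replicate 1 of both ipsilateral cortex at 24 h and contralateral cortex at 3 h (0.0556) also ended it. The Egr2 change between 6 and 24 h was lost without contralateral replicate 2 (0.0503) or 3 (0.0612) at 6 h or contralateral replicate 2 at 24 h (0.0662). For Nr4a3 that change was lost (adjusted p 0.0568 to 0.158) without any contralateral replicate or ipsilateral replicate 1 or 2 at 6 h, and without contralateral replicate 1 or 2 or ipsilateral replicate 1 or 3 at 24 h. Leaving out a library also added calls. Without contralateral replicate 3 at 24 h Nr4a2 passed the test over 4 times (0.00137) and its change between 6 and 24 h was called (0.00255), and without ipsilateral replicate 3 at 24 h both were called as well (0.0183 and 0.0257). Without contralateral replicate 1 at 3 h Nr4a2 and Nr4a3 passed the test over 4 times (0.0329 and 0.0242). Nr4a2 passed it without ipsilateral replicate 2 at 12 h (0.0351), Nr4a1 without ipsilateral replicate 3 at 12 h (0.0455), and Nr4a3 without ipsilateral replicate 3 at 6 h (0.0371), contralateral replicate 3 at 24 h (0.0249) or ipsilateral replicate 2 at 24 h (0.0439). Over the 4 times Nr4a2 and Nr4a3 each stayed uncalled in 25 of 33 alternatives, so not every setting that added a call is named.

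Set against sham, the same genes gave another view of the early hours. The differences between hemispheres and those against sham come from 1 model and share libraries. On the log2 scale, ipsilateral over contralateral is ipsilateral over sham minus contralateral over sham, so the comparisons are not independent. At 3 h means in ipsilateral, contralateral and sham cortex were 110, 40.1 and 97.0 CPM for Egr1. They were 8.79, 1.44 and 6.74 CPM for Egr2, and 17.9, 6.04 and 12.3 CPM for Egr4. At 3, 6 and 12 h contralateral levels of most members lay under every sham library: 5 of 7 at 3 h (5.61% of all genes), 6 of 7 at 6 h (7.52%) and 7 of 7 at 12 h (8.75%). At 24 h 0 of 7 were apart from sham (7.43%).

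Egr1 had 24.7 to 65.1 CPM in the 9 contralateral libraries taken at 3 to 12 h, all of them below the 122, 77.3 and 91.8 CPM of the sham libraries. At 6 h contralateral Egr1 was 3.18-fold lower than sham (log2 -1.67 ± 0.26, adjusted p = 0.0225), the only member called (0.0332% of all genes lower). Egr2 had 0.751 to 1.85 CPM in these contralateral libraries, against 9.43, 3.91 and 6.88 CPM in sham. It was 4.69-fold, 6.31-fold and 4.72-fold lower at 3, 6 and 12 h, differences not called by edgeR (adjusted p = 0.245, 0.171 and 0.102). Nr4a1 had 10.6 to 27.2 CPM in the contralateral libraries at 3 to 12 h, below the 60.7, 34.6 and 44.1 CPM of the sham libraries, and its log2 fold changes were -0.94 ± 0.32, -1.50 ± 0.32 and -1.55 ± 0.33 (adjusted p = 0.453, 0.196 and 0.0512). The contralateral levels of Egr4 against sham were log2 -1.03 ± 0.27, -1.11 ± 0.27 and -1.12 ± 0.27 at these times, also not called. Egr3 was at log2 0.03 ± 0.22, -0.19 ± 0.22 and -0.53 ± 0.22. Without contralateral replicate 2 at 12 h Egr1 was called lower than sham at that time too (log2 -1.37, adjusted p = 0.0299).

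The number of contralateral calls depended on the tool. With edgeR 0, 1, 0 and 0 of 7 members passed at 3, 6, 12 and 24 h (0.0111, 0.0332, 0.144 and 0.0829% of all genes lower), and 5, 6, 6 and 0 had an unadjusted p under 0.05. For this looser rule no share of all genes is given. With DESeq2 3, 5, 4 and 0 members passed, all lower than sham, where 34, 22, 145 and 64 of all genes did in either direction. The mean of the 4 contralateral groups was 2.16-fold lower than sham for Egr1 (adjusted p = 0.0212) and 3.85-fold lower for Egr2 (adjusted p = 0.0495), where 0.0663% of all genes were called lower. With the day of surgery blocked neither passed (0.0551 and 0.0869). The Egr1 mean was lost without sham replicate 1 (0.557) or 3 (0.118) or contralateral replicate 1 at 3 h (0.0570), and the Egr2 mean without any of 14 libraries, every sham and contralateral library but contralateral replicate 3 at 24 h (adjusted p 0.0511 to 0.929). The 6 h call of Egr1 was lost without sham replicate 1 (0.111) or 3 (0.0812) or any contralateral replicate (0.163, 0.147 and 0.158). The median over the 10 cortical excitatory neuron markers in contralateral cortex was -0.03 at 6 h and 0.23 at 12 h on the log2 scale, with 0 of 10 called at either time. Of all genes, 0.0332 and 0.144% were called lower and 0 and 0.094% higher, so this count shows little. At 3 h the sums of these markers were 1524 to 1660 CPM in contralateral libraries, against 1385 to 1563 CPM in sham. Their part in the contralateral differences was not tested.

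Contralateral levels differed between the 4 times for 0 of 7 members by edgeR (0.918% of all genes), with 5 at an unadjusted p under 0.05 and 4 by DESeq2 (394 of all genes). The DESeq2 test was a likelihood-ratio test on the contralateral libraries alone, so it differs from the edgeR fit in more than the tool. This F-test and the one on ipsilateral levels were added after the levels had been seen. Without contralateral replicate 2 at 12 h Egr1 passed (adjusted p = 0.0302), and without contralateral replicate 3 at 24 h Egr2 did (0.0371).

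**Figure D3:**
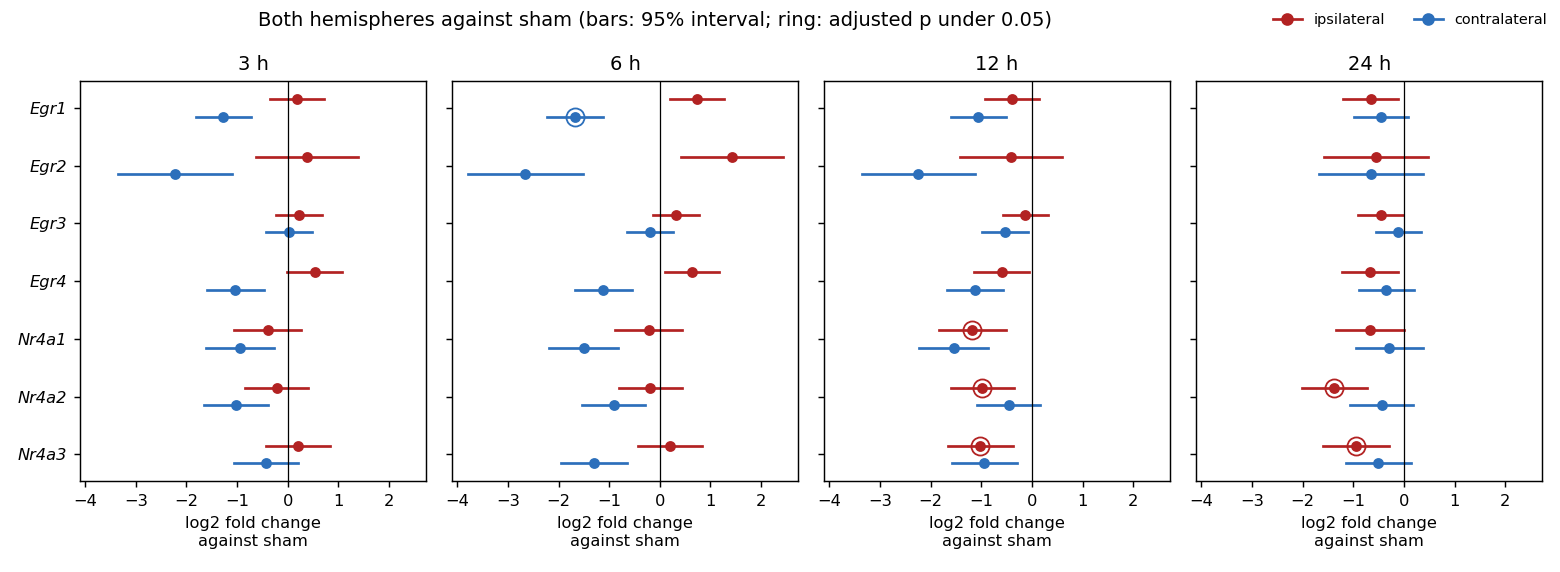
Log2 fold change against sham (horizontal axis, bars are 95% intervals) of ipsilateral and contralateral cortex for each member at 3, 6, 12 and 24 h, from 3 libraries per group, with rings where the adjusted p is under 0.05. The contralateral points of Egr1, Egr2, Egr4 and Nr4a1 lie left of 0 at 3 to 12 h, and the 5 ringed ipsilateral points are Nr4a members at 12 and 24 h.

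In ipsilateral cortex no member differed from sham by edgeR at 3 or 6 h. At 3 h 0 of 7 passed (0.227% of all genes higher), 0 had an unadjusted p under 0.05 and DESeq2 called 0. At 6 h 0 of 7 passed (5.03% of all genes higher), 3 had an unadjusted p under 0.05 and DESeq2 called 1, Egr1 (adjusted p = 0.0315). The percentages are those of edgeR at the adjusted threshold, and no share of all genes is given for the other rules. Egr1, Egr2 and Egr3 at 6 h nonetheless lay above every sham library, as 16.8% of all genes did. Egr1 was 1.65-fold higher than sham (95% interval 1.14 to 2.40, adjusted p = 0.0988) and Egr2 2.67-fold higher (1.33 to 5.37, adjusted p = 0.0887). With only the 6 h ipsilateral and sham libraries in the fit these passed, at 0.00360 and 0.0299. The nuclear receptors sat near sham at 6 h, with log2 -0.22 ± 0.32 for Nr4a1, -0.19 ± 0.30 for Nr4a2 and 0.21 ± 0.30 for Nr4a3.

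At 12 h the 3 Nr4a genes were lower in ipsilateral than in sham cortex, and no Egr gene was called. Thus 3 of 7 passed, where 3.72% of all genes were called lower. With edgeR 4 had an unadjusted p under 0.05, and DESeq2 called 3, counts for which no share of all genes is given. Nr4a1 was 2.25-fold lower (log2 -1.17 ± 0.32, adjusted p = 0.0238), Nr4a2 1.97-fold (-0.98 ± 0.30, 0.0423) and Nr4a3 2.02-fold lower (-1.01 ± 0.31, 0.0402). Nr4a2 had 10.2, 14.5 and 11.6 CPM in ipsilateral and 29.2, 20.2 and 22.0 CPM in sham libraries, and Nr4a3 had 12.5, 12.0 and 12.2 CPM, against 29.3, 20.1 and 24.8 CPM. All 3 genes had ipsilateral libraries below every sham library, as did 17.3% of all genes. The same 3 genes in contralateral cortex at 12 h stood at log2 -1.55, -0.46 and -0.94 against sham, none of them called.

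At 24 h Nr4a2 was 2.59-fold lower in ipsilateral than in sham cortex (log2 -1.37 ± 0.31, adjusted p = 0.00303) and Nr4a3 1.93-fold lower (-0.95 ± 0.31, adjusted p = 0.0324). These were 2 of 7 members, where 10.9% of all genes were called lower. With edgeR 6 had an unadjusted p under 0.05, and DESeq2 called 4 lower than sham. For these other rules no share of all genes is given, so the edgeR percentage is no background for them. Ipsilateral libraries lay under every sham library for 5 of 7 members (20.9% of all genes), the others being Egr1, Egr3 and Egr4 at log2 -0.66 ± 0.26, -0.46 ± 0.22 and -0.67 ± 0.27 (adjusted p = 0.0708, 0.134 and 0.0730). Cortical excitatory neuron markers moved in the same direction: 4 of 10 were called lower than sham at 24 h and 2 of 10 at 12 h (10.9 and 3.72% of all genes). The sums of these markers were 890 to 1080 CPM in ipsilateral libraries at 24 h, against 1385 to 1563 CPM in sham. Their part in the Nr4a differences was not tested.

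The Nr4a2 call at 24 h held in all 14 alternatives (adjusted p up to 0.0195), and the rest rested on few libraries. The Nr4a3 call at 24 h was lost without sham replicate 1 (0.124) or 3 (0.0657) or ipsilateral replicate 1 (0.112) or 3 (0.119). At 12 h the Nr4a1 call was lost without sham replicate 1 (0.118) or 3 (0.0536) or ipsilateral replicate 1 (0.135) or 2 (0.0841). The Nr4a2 call at 12 h was lost without sham replicate 1 (0.167), 2 (0.0585) or 3 (0.0747) or ipsilateral replicate 1 (0.177) or 3 (0.124), and with the day of surgery blocked (0.0518). The Nr4a3 call at 12 h was lost without sham replicate 1 (0.146) or 3 (0.0906) or any ipsilateral replicate (0.122, 0.0826 and 0.111). Ipsilateral replicate 3 at 12 h was the highest of its group for Egr1, Egr2, Egr3, Egr4 and Nr4a1, and without it Egr1 and Egr4 were also called lower than sham, at log2 -0.80 and -0.95 (adjusted p = 0.0417 and 0.0358).

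Ipsilateral levels differed between the 4 times for 6 of 7 members, all but Nr4a1 (adjusted p = 0.163), where 13% of all genes did. The adjusted p was 0.00339 for Egr1, 0.0190 for Egr2, 0.0495 for Egr3, 0.00116 for Egr4, 0.0205 for Nr4a2 and 0.00798 for Nr4a3. For Egr1, Egr4 and Nr4a3 this held in all 20 alternatives. Egr2 was lost without ipsilateral replicate 1 (0.0526) or 3 (0.0550) at 6 h, and Nr4a2 without ipsilateral replicate 1 (0.0638) or 2 (0.0534) at 24 h. Egr3 was lost without any of 10 ipsilateral libraries, all but replicate 3 at 12 h and replicate 3 at 24 h (0.0502 to 0.193). Nr4a1 passed without ipsilateral replicate 3 at 12 h (0.00908).

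Some calls were also lost under settings that kept every library. With no filter on low counts, which tests more genes, the adjusted p was 0.0602 for Egr2 between hemispheres at 3 h, 0.0649 for the Nr4a3 change between 6 and 24 h, 0.0581 for Nr4a2 and 0.0566 for Nr4a3 in ipsilateral cortex against sham at 12 h, 0.0776 for the Egr2 contralateral mean and 0.0606 for Egr3 in ipsilateral cortex over time. With DESeq2's size factors the Egr2 mean (0.0544) and Egr3 over time (0.0501) were lost. With only the libraries of the groups compared, the calls between hemispheres of Egr2 at 12 h (0.200) and Nr4a2 at 24 h (0.238) were lost, as were the Nr4a3 change between 6 and 24 h (0.119), Nr4a1 in ipsilateral cortex against sham at 12 h (0.196) and Egr2 in ipsilateral cortex over time (0.0759). In that fit Egr1 in contralateral cortex against sham at 6 h was lost too (0.0593), while Egr2 (0.00585), Nr4a2 (0.00588) and Nr4a3 (0.0235) were called lower. Leaving out replicate 1 of ipsilateral cortex at 24 h together with that of contralateral cortex at 3 h gave 0.0775 for the Nr4a3 change between 6 and 24 h.

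**Figure D4:**
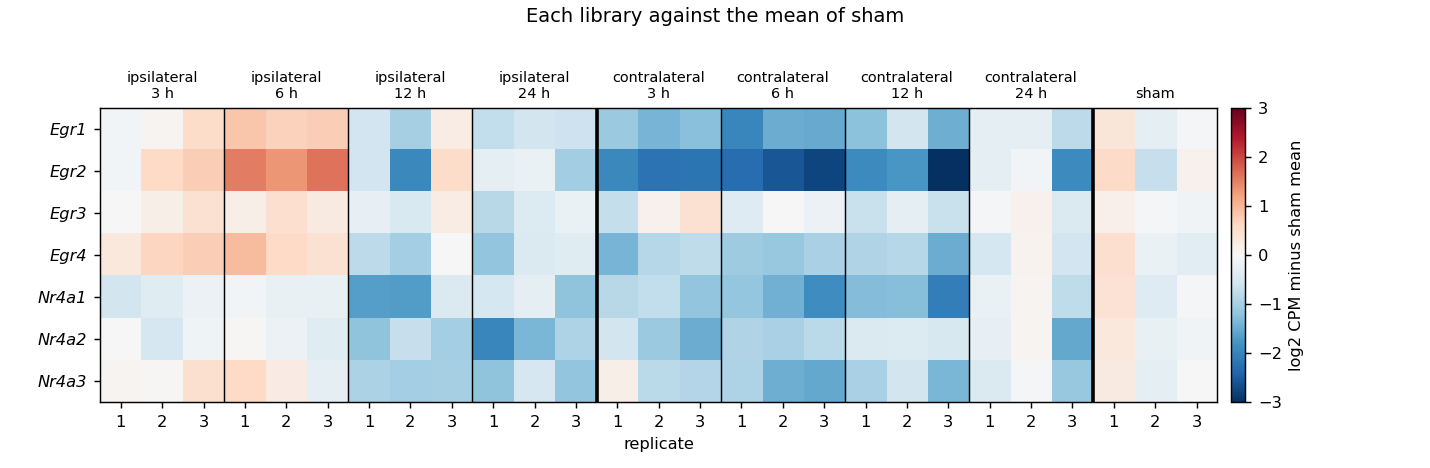
Log2 CPM of each member (rows) in each of the 27 libraries (columns, by group and replicate) minus the mean log2 CPM of the 3 sham libraries, on a color scale from -3 to 3. All 3 ipsilateral libraries at 6 h are red for all 4 Egr genes, Egr4 is red in all 3 ipsilateral libraries at 3 h as well, and contralateral libraries at 3 to 12 h are blue for every member but Egr3, apart from 1 library of Nr4a3 at 3 h.

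In several libraries the members deviated in 1 direction from their group's mean. All 7 lay above their group's mean in 5 libraries: ipsilateral replicate 3 at 3 h, replicate 2 of both hemispheres at 24 h, contralateral replicate 2 at 12 h, and sham replicate 1. All 7 lay below it in contralateral replicate 3 at both 12 and 24 h, and in sham replicate 2. Mean deviations of the 7 reached 0.52 log2 units, in ipsilateral replicate 3 at 12 h, and -0.58 in contralateral replicate 3 at 24 h. Over the 27 libraries, which fall into 9 groups and share the treatment, Egr1 and Egr2 correlated most closely (Pearson r of log2 CPM 0.954), and Egr3 with Nr4a2 least (0.372). These values hold the differences between groups. Taken on deviations from group means, r was 0.870 for Egr2 with Nr4a1, the highest, 0.792 for Egr1 with Egr2, 0.228 for Nr4a1 with Nr4a2, 0.088 for Egr3 with Nr4a2 and -0.066 for Egr3 with Nr4a3, the lowest. The genes outside the 7 with the highest mean correlation were Fos (0.736), Dusp1 (0.731), Dusp6 (0.731), Fosb (0.728) and Fosl2 (0.713). Gene by gene, the most alike was Dusp6 for Egr1 (0.902), Fos for Egr2 (0.938), Fam43b for Egr3 (0.849), Fosb for Egr4 (0.895), Dusp1 for Nr4a1 (0.892) and Gpr3 for Nr4a3 (0.819).

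Genes that act with the members were less uniform. Among 5 partner genes, 0, 2, 1 and 0 were called higher in ipsilateral than in contralateral cortex at 3, 6, 12 and 24 h, and none lower. Of all genes, 0.232, 5.85, 7.94 and 9.74% were called higher and 0.0166, 2.14, 4.3 and 9.36% lower. Nab2, a corepressor of Egr proteins that is itself an Egr target, was 3.12-fold higher at 6 h (adjusted p = 1.8e-05), with 21.6 ± 4.57 CPM in ipsilateral, 6.93 ± 1.25 CPM in contralateral and 9.76 ± 1.14 CPM in sham cortex. Nab1 was 1.37-fold higher (adjusted p = 0.00872), and the retinoid X receptor gene Rxrb was at log2 -0.24 ± 0.17 (adjusted p = 0.422).

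Of 22 genes for transcription factors, coactivators and kinases that act on these promoters, 0, 1, 1 and 4 were called higher in ipsilateral than in contralateral cortex at 3, 6, 12 and 24 h, and 0, 1, 2 and 4 lower. Over all genes 0.232, 5.85, 7.94 and 9.74% were called higher and 0.0166, 2.14, 4.3 and 9.36% lower, so the counts of higher genes at 3, 6 and 12 h were no larger than the share of all genes. At 6 h the called genes were Srf, serum response factor, 1.56-fold higher (adjusted p = 0.0111), and Rps6ka5, the kinase MSK1, 1.42-fold lower (adjusted p = 0.0444). Camk4, a calcium-dependent kinase that activates CREB, was at log2 -0.44 ± 0.16 (adjusted p = 0.0799). The median log2 fold change of this list at 6 h was 0.04, beside -0.02 over all genes.

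Between hemispheres 0.232, 5.85, 7.94 and 9.74% of all genes were called higher at the 4 times, and 0.0166, 2.14, 4.3 and 9.36% lower. Among 21 other immediate early genes, 8, 16, 11 and 9 were called higher in ipsilateral than in contralateral cortex and 0 lower. The 3 with the smallest p at 6 h were Atf3, a stress-induced factor (41.9-fold, adjusted p = 2.25e-06), Jun, an AP-1 subunit (5.98-fold, adjusted p = 3e-06) and Gadd45b, a growth arrest gene (4.90-fold, adjusted p = 4.31e-06). Against sham 3, 8, 3 and 7 of the 21 were called higher in ipsilateral cortex, where 0.227, 5.03, 6.58 and 11.3% of all genes were. Of the 7 Egr and Nr4a genes 0 were called higher than sham, and the difference between both lists was not tested. In contralateral cortex 0, 1, 5 and 0 of the 21 were called lower than sham, where 0.0111, 0.0332, 0.144 and 0.0829% of all genes were. The median of the 21 against sham was log2 0.89 in ipsilateral cortex at 6 h, beside 0.32 for the 7 members and -0.01 over all genes. Jun at 6 h had 122 ± 30.4 CPM in ipsilateral, 20.4 ± 1.92 CPM in contralateral and 21.6 ± 1.67 CPM in sham cortex.

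Genes described as Egr targets, mostly in other tissues, were called higher in ipsilateral than in contralateral cortex in 0, 5, 6 and 6 of 12 cases at the 4 times, and lower in 0, where 0.232, 5.85, 7.94 and 9.74% of all genes were called higher. At 6 h Nab2 led, followed by Arc, a synaptic immediate early gene that the list above also holds, at 392 ± 98.8 CPM in ipsilateral, 54.0 ± 12.7 CPM in contralateral and 233 ± 41.3 CPM in sham cortex (7.26-fold over contralateral, adjusted p = 7.9e-05). Pdgfa, a growth factor gene, was 1.60-fold higher (adjusted p = 0.0100). Of 7 genes described as Nr4a targets, 2 were called higher and 1 lower at 6 h: Bdnf, a neurotrophin gene (2.11-fold higher, adjusted p = 0.00491), Slc6a3, the dopamine transporter gene, at under 1 CPM in mean (0.849 ± 0.747 CPM in ipsilateral and 0.101 ± 0.0544 CPM in contralateral cortex, adjusted p = 0.0266), and E2f1, a cell cycle factor gene (1.49-fold lower, adjusted p = 0.0379). Of all genes, 5.85% were called higher and 2.14% lower at 6 h. At 3 and 12 h 0 of the 7 Nr4a targets were called, and at 24 h 1 was called lower (9.36% of all genes).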

How the data were processed

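Total RNA was depleted of ribosomal RNA and made into TruSeq libraries, per the labels' protocols. The values are the authors' whole-number read counts per gene, as deposited in 1 table of 27 columns, with no normalization. Reads were aligned to mm10 with STAR 2.5.0a and counted with featureCounts 1.4.3-p1, per the submitters' processing notes, and for the annotation and the strand setting the sources used here give nothing. No column was left unused, and no 2 libraries held identical values.

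Columns were matched to groups by their labels. Counts were tested with edgeR 4.0.16 in R 4.3.3: TMM scaling, a filter of at least 10 counts per library and 15 in total as filterByExpr applies them, and robust quasi-likelihood F-tests in 1 model of 9 groups with 3 libraries each. P-values were Benjamini-Hochberg adjusted over 18087 genes, with a threshold of 0.05. Fold changes are from that fit with 95% intervals, and CPM uses TMM-scaled library sizes. P-values measure the spread between these libraries, and the 3 of a group come from separate days of surgery. Library depth limits the precision of Egr2 most, with as few as 27 counts. The tests were checked on simulated counts.

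The 7 members and all lists were chosen with earlier results of these data known. All 7 members were named in every comparison, of each other list up to 3 genes with the smallest p at 6 h between hemispheres, and as most alike the 5 genes with the highest mean correlation plus 1 per member, of which the one for Nr4a2 is not reported here. The numbers of the replicates mark the day of surgery, by the study's design text, and so pair the libraries. Deviations from group means correlated at 0.0475 on average between libraries of the same number (108 pairs, 31 of them over 0.1) and at -0.0237 between the rest (216 pairs, 15 over 0.1). Alternatives were DESeq2 1.42.0, its size factors, 2 other filters on low counts, abundant RNAs left out, the day of surgery as a block, fits of only the groups compared, and each library left out. Promoters and motifs were read with Python 3.11.15.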

Additional observations from a re-analysis of the deposited data

Results flagged for a closer look

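The difference between ipsilateral and contralateral cortex was not the same at 3, 6, 12 and 24 h, by a test of that difference itself, for Egr1 (adjusted p = 0.00482), Egr2 (0.0341) and Egr4 (0.00905), all from edgeR. The log2 fold changes of ipsilateral over contralateral cortex at the 4 times were 1.46, 2.40, 0.67 and -0.21 for Egr1, 2.61, 4.07, 1.82 and 0.10 for Egr2, and 1.57, 1.75, 0.52 and -0.32 for Egr4.

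The effect at 24 h differed from that at 6 h for Egr1 (adjusted p = 0.00173), Egr2 (0.0166), Egr4 (0.0121) and Nr4a3 (0.0464), again by a test of the difference itself. For Nr4a3 the log2 fold changes were 1.51 at 6 h and -0.44 at 24 h.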

How the results depend on the processing

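Over 126 results on single members, 2170 alternative values were computed: 1948 had the same direction and side of the threshold, 135 lost the call, 65 gained one and 22, none of them called, changed sign. The cause was not tested. No sign changed under DESeq2's size factors or with abundant RNAs left out. Depth limits Egr2 and Egr4, the members with the fewest counts.

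The counts below are of the 7 members called. With DESeq2's size factors the contralateral mean against sham gave 1 (2 in edgeR as reported). With no filter on low counts it gave 1 and ipsilateral against sham at 12 h gave 1 (3 as reported). A filter of 1 CPM, and abundant RNAs left out, each gave 1 for contralateral against sham at 12 h (0 as reported). With the replicate block, ipsilateral against contralateral at 24 h gave 0 (1 as reported) and the contralateral mean gave 0. The block within each time gave 1 at 3 h (3 as reported), 0 at 12 h (1 as reported) and 0 at 24 h between hemispheres. The block changed no other call beside those given with the results. Without the 2 technically distinct libraries (replicate 1 of ipsilateral cortex at 24 h and of contralateral cortex at 3 h), ipsilateral against contralateral gave 0 at 3 h and 0 at 24 h, ipsilateral against sham gave 1 at 24 h (2 as reported), and contralateral against sham gave 0 at 6 h (1 as reported), 1 at 12 h and 0 for the mean. With only the groups compared, ipsilateral against contralateral at 12 h gave 0 higher and 1 lower, at 24 h 0, ipsilateral against sham at 6 h 2 (0 as reported), and contralateral against sham 3 at 6 h, Egr1 not among them, and 1 at 12 h. DESeq2 gave 2 for ipsilateral against contralateral at 12 h, 1 at 6 h and 4 at 24 h for ipsilateral against sham, 3, 5 and 4 at 3, 6 and 12 h for contralateral against sham, 4 for their mean, 5 for effects differing between times (3 as reported) and 4 for contralateral levels differing between times (0 as reported). Its tests over the 4 times were likelihood-ratio tests on only the groups compared, so there the test and the libraries differ as well as the tool.

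With each library left out in turn, the members called ranged from 0 to 3, 4 to 5, 0 to 2 and 0 to 1 between hemispheres at 3, 6, 12 and 24 h. Ipsilateral against sham gave 0, 0, 0 to 3 and 1 to 2, and contralateral against sham 0, 0 to 1, 0 to 1 and 0, with 0 to 2 for its mean. Effects differing between times gave 2 to 5, the change between 6 and 24 h 2 to 5, that between 3 and 6 h 0, contralateral levels over time 0 to 1 and ipsilateral levels 4 to 7.

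Counts over all genes moved more. Contralateral against sham at 3 h, 2 as reported, gave 4 with DESeq2's size factors, 6 with no filter, 5 at 1 CPM, 6 with the replicate block, 5 with abundant RNAs out, 1 without the 2 libraries, 1 with only the groups compared and 34 in DESeq2. Effects differing between times, 242 as reported, gave 411 with the block, 725 with it within each time, 526 without the 2 libraries, 146 with only the groups compared and 763 in DESeq2.

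The values that changed sign were log2 fold changes near 0, and none was called. For Egr3, contralateral against sham at 3 h was -0.015 with the replicate block and ipsilateral against contralateral at 3 h was -0.072 without the 2 libraries, and for Egr2 that at 24 h was -0.0094 without them. With each library left out, ipsilateral against sham ranged from -0.0067 to 0.38 for Egr1 at 3 h, -0.39 to 0.022 for Nr4a1 and -0.014 to 0.41 for Nr4a3 at 6 h, and -1.20 to 0.0021 for Egr2 and -0.34 to 0.0051 for Egr3 at 12 h. Contralateral against sham ranged from -0.24 to 0.29 at 3 h and -0.23 to 0.038 at 24 h for Egr3. Ipsilateral against contralateral ranged from -0.071 to 0.47 for Egr3 at 3 h, -0.16 to 0.58 for Nr4a1 and -0.25 to 0.16 for Nr4a3 at 12 h, and -0.29 to 0.40 for Egr2 at 24 h, and its change between 3 and 6 h ranged from -0.36 to 0.082 for Nr4a2.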
